A study of Mus musculus with 6 samples.

Results

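The dystrophin glycoprotein complex was followed in differentiating mouse muscle cells through 8 of its genes: Dag1, Sgca, Sgcb, Sgcd, Sspn, Dtna, Utrn and Dmd. They were found by symbol among the 27179 genes of each of 2 comparison tables made by the authors, and 8 of 8 were present and tested in both. RNA was sequenced from C2C12, an immortal mouse myoblast line, taken 48 h after a change to low-serum medium with insulin. The cells carried a stably transfected shRNA against BAF250A, an shRNA against BRD9, or a non-targeting scrambled shRNA, with 2 libraries in each of the 3 groups. SWI/SNF enzymes move nucleosomes and come in several forms; BAF250A, the product of Arid1a, marks the BAF form, and BRD9 marks ncBAF. All groups, the scrambled one included, are stable lines in the same medium, and the sources used here do not give the number of shRNA sequences or clones. Libraries of a group are called biological duplicates without a statement of how cultures were separated. The p-values thus rest on 2 libraries a group and may not measure the spread between independent cultures.

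The complex spans the muscle cell membrane. Dystrophin, or its homologue utrophin, binds actin inside the cell and beta-dystroglycan at the membrane, and alpha-dystroglycan binds laminin and other matrix proteins outside. The sarcoglycans and sarcospan form a subcomplex beside dystroglycan, while dystrobrevin and the syntrophins sit inside and hold signalling proteins. Loss of dystrophin causes Duchenne muscular dystrophy, and loss of alpha-, beta- or delta-sarcoglycan causes a limb-girdle form.

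The targeted genes set the sign: in the authors' deposited tables Arid1a stood at -1.95 for BAF250A and Brd9 at -1.60 for BRD9 on the log2 scale, so a positive value was taken to mean more RNA with the targeting shRNA. The muscle identity genes Des and Myod1 were well detected, with mean normalized counts of 138937 and 6391 in the authors' deposited table for BAF250A. The deposited values could be resolved into the whole reads of each of the 6 libraries for all 8 genes, as described under the processing, and these reads were divided by each library's size factor to give normalized counts. The 2 libraries of a group are called library 1 and library 2 by their size factor, the larger first, since the letters of the sample titles could not be tied to them. Size factors ran between 0.773 and 1.58, and the scrambled libraries had the larger ones in both tables. Each comparison has its own size factors, so the scrambled normalized counts differ slightly between them although the reads are the same, and both comparisons share these 2 scrambled libraries.

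Sgca, Sgcd and Sspn, the genes of alpha-sarcoglycan, delta-sarcoglycan and sarcospan, rose in BAF250A knockdown, and Sgca and Sspn rose in BRD9 knockdown. In the authors' deposited tables this is 3 of 8 genes higher and 0 lower for BAF250A, and 2 of 8 higher and 0 lower for BRD9, at an adjusted p below 0.05 by the Wald test. Over all tested genes of those tables, 11.2% were called higher and 17.5% lower for BAF250A (28.7% in either direction), against 5.11% higher and 9.33% lower for BRD9 (14.4% in either direction). The median log2 fold change of the 8 genes was 0.35 for BAF250A and 0.88 for BRD9 in the authors' deposited tables, beside -0.18 and -0.15 over all tested genes. Leaving out any 1 library left 3 calls for BAF250A but 1 for BRD9: Sspn without scrambled library 1 or BRD9 library 2, and Sgca without scrambled library 2 or BRD9 library 1. In bulk RNA, fewer cells of a type and less RNA per cell cannot be told apart.

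The regions before RefSeq starts of these 3 genes are shown because the same genes stood highest in both comparisons. Each is the stretch of 250 bases before a RefSeq gene start (GRCm38.p6), read 5′ to 3′ on the gene's strand. Sgca is on the minus strand (chr11:94976328-94976577), as is Sgcd (chr11:47379326-47379575), and Sspn has 2 starts on the plus strand (chr6:145931623-145931872 and chr6:145933872-145934121). By the GENCODE gene spans given with each gene below, only the Sgca window lies wholly before its gene. The Sgcd window and the second Sspn window lie inside the gene span, and most of the first Sspn window does. These windows may therefore not be the promoters used in these cells. Capitals mark matches on either strand to 3 motifs, which do not overlap here: the E-box CANNTG bound by myogenic bHLH factors, the TEAD pattern CATTCC, and the AP-1 pattern TGANTCA.
Sgca: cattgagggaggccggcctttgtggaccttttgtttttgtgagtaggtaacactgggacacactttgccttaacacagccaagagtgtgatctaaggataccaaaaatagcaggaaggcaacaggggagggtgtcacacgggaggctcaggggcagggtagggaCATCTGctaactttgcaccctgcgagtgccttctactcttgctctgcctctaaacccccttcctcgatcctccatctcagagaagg
Sgcd: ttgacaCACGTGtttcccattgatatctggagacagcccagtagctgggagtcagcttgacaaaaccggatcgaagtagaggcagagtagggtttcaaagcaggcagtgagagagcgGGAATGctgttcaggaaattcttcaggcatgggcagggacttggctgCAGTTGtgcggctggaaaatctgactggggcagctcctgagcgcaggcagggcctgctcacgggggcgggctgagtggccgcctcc
Sspn, first start: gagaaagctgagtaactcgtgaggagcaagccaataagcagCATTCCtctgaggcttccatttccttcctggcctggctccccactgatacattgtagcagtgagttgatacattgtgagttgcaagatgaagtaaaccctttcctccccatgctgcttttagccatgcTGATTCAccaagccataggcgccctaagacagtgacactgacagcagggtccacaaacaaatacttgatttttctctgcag
Sspn, second start: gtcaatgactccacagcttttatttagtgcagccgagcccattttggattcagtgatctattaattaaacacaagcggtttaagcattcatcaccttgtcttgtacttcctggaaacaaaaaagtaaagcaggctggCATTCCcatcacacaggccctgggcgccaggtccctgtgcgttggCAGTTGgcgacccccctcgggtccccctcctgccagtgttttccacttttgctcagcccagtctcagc
Sgca has 1 E-box, 86 bases before its start, and matches neither of the other patterns. Sgcd has 2 E-boxes, 244 and 86 bases before the start, and a TEAD match. Both Sspn windows have a TEAD match, the first also an AP-1 match and the second an E-box. Of 32851 mouse promoter windows of this length, 66.2% hold an E-box, 12.6% the TEAD pattern and 6.75% the AP-1 pattern. A match is a match of letters, and binding was not measured here. Windows were found for 7 of the 8 genes (10 windows), all except Dtna. Genes that were not called held matches too: the Utrn window has 7 E-boxes and each Dag1 window has 1. The first Dmd window has 2 E-boxes and an AP-1 match, while its second window and the Sgcb window match none of the patterns.

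Dag1, which encodes both dystroglycan subunits, lies on chromosome 9 (108204634 to 108263958, minus strand, GRCm38). It had 12948 and 13688 normalized counts in the BAF250A libraries, against 20581 and 17446 in the scrambled libraries. In the other table it had 37147 and 34037 normalized counts in the BRD9 libraries, against 21946 and 17864 in the scrambled ones. Neither knockdown overlapped the scrambled libraries, and the directions were opposite, below them with BAF250A and above them with BRD9. Neither change passed the test: the log2 fold change was -0.50 (SE 0.42, adjusted p 0.394) for BAF250A and 0.81 (SE 0.47, adjusted p 0.294) for BRD9 in the authors' deposited tables. The difference between the knockdowns was -1.32 (SE 0.63, 95% interval -2.55 to -0.08) on the log2 scale, with an unadjusted p of 0.0374 by a two-sided z test and an adjusted p of 0.513 over 16311 genes. This test adds both squared errors although the comparisons share their controls, and with the halved variance that sharing allows the adjusted p was 0.0446.

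Sgca encodes alpha-sarcoglycan, a sarcoglycan found mainly in striated muscle, and lies on chromosome 11 (94962791 to 94976327, minus strand). It had 4049 and 5053 normalized counts in the BAF250A libraries (mean 4551 ± 710, SD, n = 2), against 856 and 1602 in the scrambled libraries (1229 ± 528). The BRD9 libraries had 3411 and 5336 (4373 ± 1361), against 913 and 1641 in the scrambled libraries (1277 ± 515). All 4 knockdown libraries stood above both scrambled libraries. The log2 fold change was 1.84 (SE 0.47, adjusted p 0.000667) for BAF250A and 1.70 (SE 0.53, adjusted p 0.011) for BRD9 in the authors' deposited tables, or 3.59-fold (95% interval 1.90 to 6.79) and 3.26-fold (1.60 to 6.65).

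Sgcb, the gene of beta-sarcoglycan on chromosome 5 (73632749 to 73647790, minus strand), did not pass either test. Its normalized counts were 2593 and 2714 with BAF250A against 2667 and 1647 with the scrambled shRNA, and the groups overlapped. With BRD9 it had 4747 and 4199, against 2844 and 1687, and both BRD9 libraries stood above both scrambled ones. The authors' deposited tables give 0.29 (SE 0.45, adjusted p 0.676) for BAF250A and 0.95 (SE 0.50, adjusted p 0.232) for BRD9 on the log2 scale. Without scrambled library 2 the BAF250A value was -0.0070, and without scrambled library 1 it was 0.67.

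Sgcd, the gene of delta-sarcoglycan, spans 46896253 to 47988969 on chromosome 11 (minus strand). It was the lowest of the 3 sarcoglycan genes, with 267 and 251 reads in the BAF250A libraries, 250 and 129 in the BRD9 libraries and 103 and 104 in the scrambled libraries. After scaling, BAF250A had 333 and 325 normalized counts (329 ± 6.02, SD, n = 2) against 65.4 and 95.1 (80.2 ± 21.0), and BRD9 had 297 and 165 (231 ± 93.6) against 69.7 and 97.3 (83.5 ± 19.5). Neither knockdown overlapped the scrambled libraries, and the BRD9 libraries were farther apart from each other than the BAF250A libraries. The log2 fold change was 1.98 (SE 0.50, adjusted p 0.000578) for BAF250A in the authors' deposited table, a 3.95-fold change (95% interval 2.00 to 7.80). In the authors' deposited table for BRD9 it was 1.40 (SE 0.59), with an adjusted p of 0.0981 and an unadjusted p of 0.0173. The difference between the knockdowns was 0.59 (95% interval -0.92 to 2.10) and did not pass, so the call in one table and not in the other does not show a difference between them.

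Sspn encodes sarcospan, a small membrane protein bound to the sarcoglycans, and lies on chromosome 6 (145931641 to 145965223, plus strand). It had 4770 and 5140 normalized counts with BAF250A (4955 ± 261, SD, n = 2) against 1323 and 1081 with the scrambled shRNA (1202 ± 171). With BRD9 it had 4903 and 3538 (4221 ± 965) against 1411 and 1107 (1259 ± 215). The groups did not overlap in either comparison. In the authors' deposited tables it had the largest called change of the 8 genes for BAF250A, 2.00 (SE 0.42, adjusted p 2.6e-05), and a change of 1.68 (SE 0.49, adjusted p 0.00626) for BRD9. These are 4.01-fold (95% interval 2.25 to 7.14) and 3.21-fold (1.65 to 6.26). Exons of Sspn overlap those of Sspnos on the opposite strand, and the sources used here do not say whether counting used strand, so their reads cannot be told apart.

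**Figure D1:**
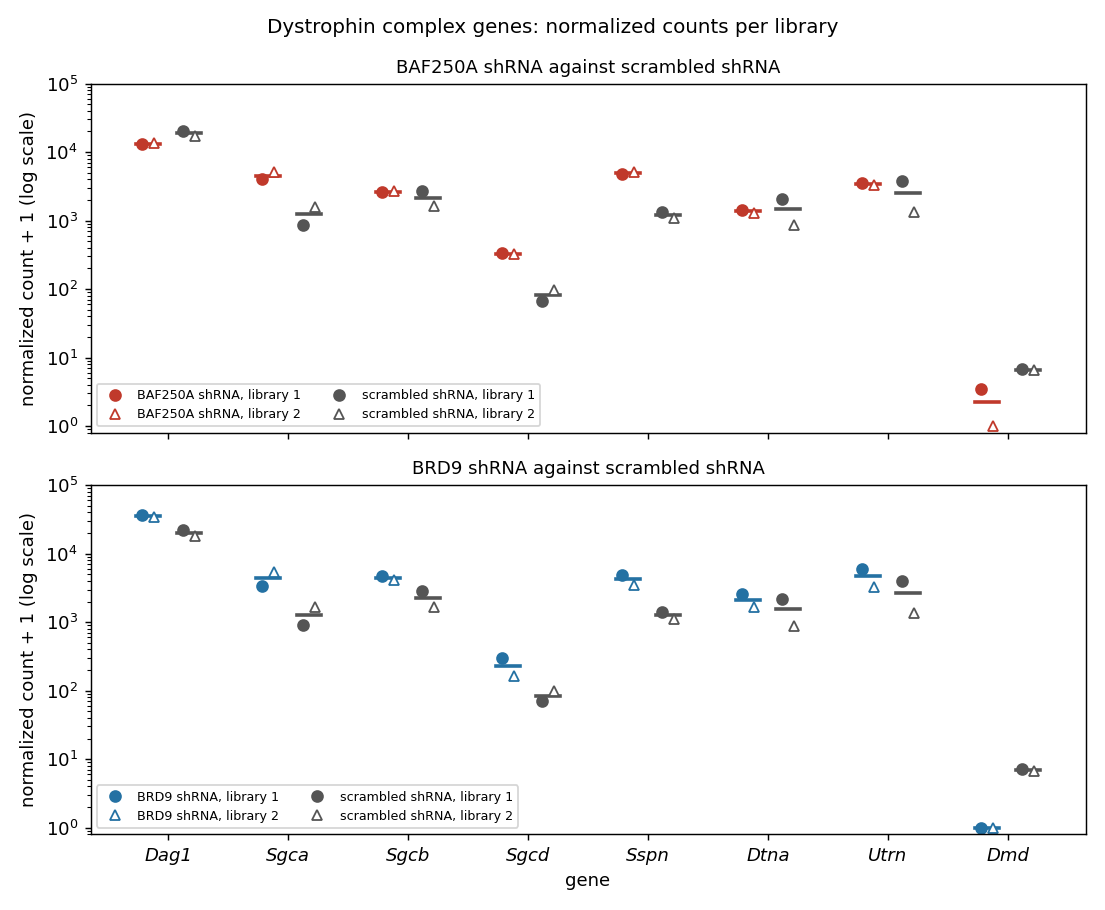
Normalized counts plus 1 of the 8 genes in each library on a log axis, BAF250A in the upper panel and BRD9 in the lower, each left of its scrambled libraries; circles and triangles are library 1 and library 2, short bars are means of 2, and a library with 0 reads stands at 1. The BAF250A and BRD9 libraries lie above the scrambled ones for Sgca, Sgcd and Sspn, while Utrn and Dtna overlap in both comparisons.

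Dtna encodes alpha-dystrobrevin, a relative of dystrophin on the inner face of the complex, and lies on chromosome 18 (23415135 to 23659715, plus strand). It had 1449 and 1274 normalized counts with BAF250A against 2068 and 851 with the scrambled shRNA, and 2570 and 1682 with BRD9 against 2206 and 871. The groups overlapped in both comparisons, and the log2 fold changes in the authors' deposited tables were -0.10 (SE 0.51, adjusted p 0.911) and 0.44 (SE 0.56, adjusted p 0.697). The scrambled libraries set the direction: without library 1 of them the BAF250A value was 0.65, and without library 2 the BRD9 value was -0.049. An exon of Gm47898 overlaps it on the opposite strand, with the same limit as for Sspn.

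Utrn encodes utrophin, the homologue that can stand in for dystrophin, and lies on chromosome 10 (12382188 to 12869365, minus strand). It had 3596 and 3263 normalized counts with BAF250A against 3803 and 1321 with the scrambled shRNA, and 6065 and 3303 with BRD9 against 4056 and 1353. The scrambled libraries were farther apart for Utrn than for any other of the 8 genes in terms of their ratio, which was 2.88, and both comparisons overlapped. The authors' deposited tables give 0.41 (SE 0.52, adjusted p 0.611) for BAF250A and 0.75 (SE 0.59, adjusted p 0.474) for BRD9. For BAF250A the value was 1.31 without scrambled library 1 and -0.14 without scrambled library 2, and for BRD9 it was 1.65 and 0.19.

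Dmd, the dystrophin gene on chromosome X (82948870 to 85206141, plus strand), was barely sequenced in any group. It had 2 and 0 reads in the BAF250A libraries, 0 and 0 in the BRD9 libraries, and 9 and 6 in the scrambled libraries. The deposited log2 fold changes of -1.40 (SE 1.45, adjusted p 0.513) and -2.28 (SE 1.34, adjusted p 0.295) in the authors' deposited tables depend on the prior of the fit at such counts and are no bound. The libraries of both knockdowns stood below both scrambled libraries after scaling, but by a few reads only. A change of Dmd was not called and could not be judged at this depth. Utrn, by comparison, had 2881 and 2522 reads in BAF250A, 5101 and 2584 in BRD9 and 5991 and 1445 in scrambled libraries.

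**Figure D2:**
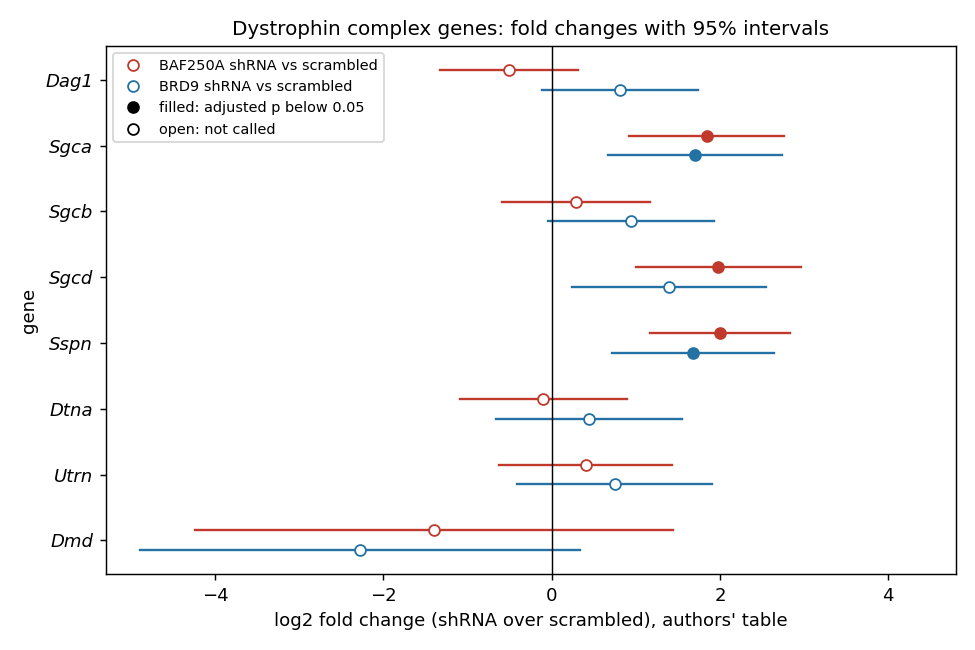
Log2 fold changes of the 8 genes in the authors' deposited tables with 95% intervals, knockdown over scrambled shRNA; filled points have an adjusted p below 0.05. The filled points are Sgca, Sgcd and Sspn for BAF250A and Sgca and Sspn for BRD9, all between 1.68 and 2.00.

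Levels were compared between the genes per kilobase of the longest transcript. In BAF250A libraries the order of normalized counts per kb was Sgca 2640, Dag1 2352, Sspn 1098, Sgcb 701, Utrn 277, Dtna 216, Sgcd 134 and Dmd 0.0837. In BRD9 libraries it was Dag1 6286, Sgca 2537, Sgcb 1182, Sspn 935, Utrn 378, Dtna 338, Sgcd 94.3 and Dmd 0. In scrambled libraries, on the scale of the BAF250A table, it was Dag1 3358, Sgca 713, Sgcb 570, Sspn 266, Dtna 232, Utrn 207, Sgcd 32.7 and Dmd 0.376. Dag1 led in the scrambled and BRD9 groups. In the BAF250A group Sgca and Dag1 overlapped, at 2348 and 2931 against 2287 and 2418 normalized counts per kb, and in the BRD9 group Utrn and Dtna overlapped, so the order of these pairs is within their spread. The single scrambled libraries overlapped for the neighbours Sgca and Sgcb, at 497 and 930 against 704 and 435 normalized counts per kb, and for Sspn, Dtna and Utrn, so these neighbours do not differ beyond their spread.

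The ratio between the 2 scrambled libraries was higher for longer transcripts. Among the 7 genes other than Dmd, the ratio of scrambled library 1 to library 2 was lowest for the shortest transcript, 0.534 for Sgca at 1.724 kb, and highest for the longest, 2.88 for Utrn at 12.382 kb. Spearman's rho between this ratio and length was 0.857 over the 7 genes and 0.742 over 13 genes of the complex. Between the BAF250A libraries rho was 0.643 over the 7 genes, with ratios between 0.801 and 1.14, but 0.319 over the 13. Between the BRD9 libraries it was 0.536 over the 7 genes, with ratios between 0.639 and 1.84, and 0.412 over the 13. These are descriptions over genes that share libraries, and the part of this spread in the results was not tested.

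**Figure D3:**
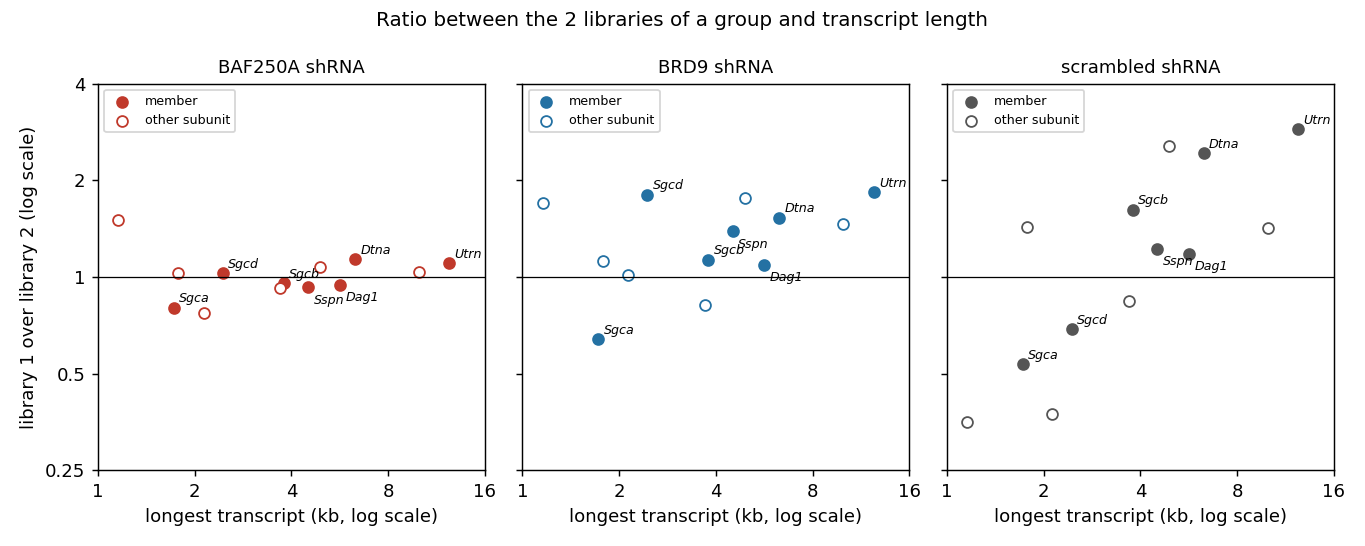
Ratio of normalized counts between library 1 and library 2 of each group against the longest transcript in kb, both on log axes, for 7 of the 8 genes (filled) and 6 other subunits (open). The scrambled ratio is lowest at 0.354 for Cav3, 0.534 for Sgca among the 7, and highest at 2.88 for Utrn.

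The series sets BAF against ncBAF, and this was asked of the complex by the difference of its fold changes. By the z test of the difference with Benjamini-Hochberg adjustment, 0 of the 8 genes passed, beside 2.54% of 16311 genes (0.552% higher and 1.99% lower with BAF250A), and 1 (Dag1) had an unadjusted p below 0.05. The differences of Sgca and Sspn were 0.14 (95% interval -1.24 to 1.52) and 0.32 (-0.95 to 1.59) on the log2 scale. Intervals this wide do not show that the knockdowns act alike.

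Among the other subunits of the complex, Cav3 and Sntb1 fell in BAF250A knockdown. Of 10 such genes, 8 were tested for BAF250A in the authors' deposited table, and 0 were higher and 2 lower, with a median of -0.40. All tested genes of that table had 11.2% higher, 17.5% lower and a median of -0.18. Cav3, which encodes the muscle caveolin found with the complex, had 69.9 and 46.6 normalized counts with BAF250A against 1380 and 3902 with the scrambled shRNA. Sntb1, which encodes beta1-syntrophin, had 83.6 and 77.6 with BAF250A against 703 and 274 with the scrambled shRNA. Both groups of values were apart, and in the authors' deposited table Cav3 fell by 5.32 (SE 0.55, adjusted p 4.73e-20) and Sntb1 fell by 2.51 (SE 0.55, adjusted p 5.74e-05).

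With BRD9, 0 of 9 tested other subunits were called by the authors' Wald test, 0 had an unadjusted p below 0.05, and the median was -0.21. All tested genes had 14.4% called and a median of -0.15. The authors' deposited table has Cav3 at -0.71 (SE 0.58) and Sntb1 at 1.12 (SE 0.58). The difference between the knockdowns passed for both: -4.61 for Cav3 (adjusted p 3.02e-06) and -3.64 for Sntb1 (adjusted p 0.000699) by the z test. Sgcz, Sntg1, Sntg2 and Nos1, the genes of zeta-sarcoglycan, the gamma-syntrophins and neuronal nitric oxide synthase, had 10 or fewer reads in every library.

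**Figure D4:**
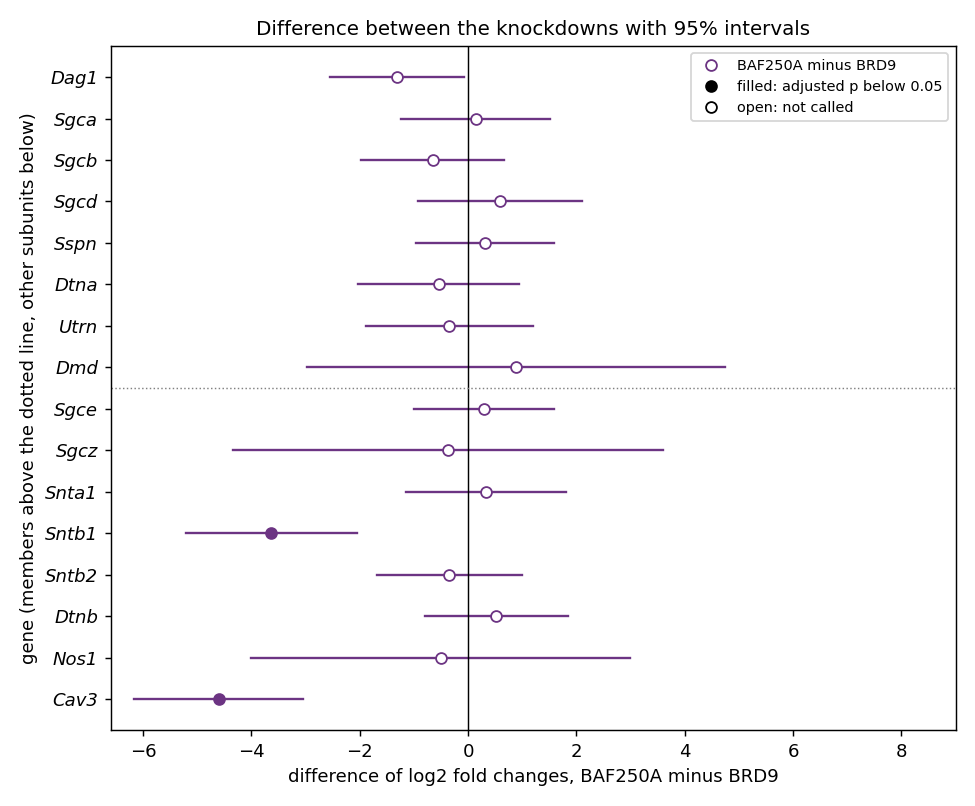
Difference of the deposited log2 fold changes, BAF250A minus BRD9, with 95% intervals for the 8 genes (above the dotted line) and 8 other subunits tested in both tables (below it). Filled points passed the z test at an adjusted p below 0.05: Sntb1 at -3.64 and Cav3 at -4.61.

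Outside the cell, dystroglycan binds laminins, agrin and perlecan, and biglycan binds the complex as well. Of 10 such ligand genes, 3 rose and 2 fell for BAF250A in the authors' deposited table, with a median of 0.67. Lama1, the gene of the laminin alpha1 chain, rose by 4.39 (SE 0.48), Bgn, the gene of biglycan, by 2.19 (SE 0.42) and Lamb2, the gene of laminin beta2, by 1.13 (SE 0.43), per the authors' deposited table. In the same authors' deposited table Agrn, the gene of agrin, fell by 2.59 (SE 0.43) and Lama5, the laminin alpha5 gene, fell by 1.18. For BRD9, 1 ligand gene rose and 1 fell in the authors' deposited table, again with a median of 0.67: Lama2, the alpha2 chain of muscle laminin, rose by 2.07 (SE 0.56) and Agrn fell by 1.89 (SE 0.48). Called shares over all tested genes were 28.7% for BAF250A and 14.4% for BRD9, with medians of -0.18 and -0.15. The z test called 0 of the 10 between the knockdowns, beside 2.54% of 16311 genes, and 4 had an unadjusted p below 0.05.

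Alpha-dystroglycan binds laminins, agrin and perlecan only after glycosylation. Of 16 genes of that pathway, 1 rose and 2 fell for BAF250A in the authors' deposited table, with a median of -0.38. Pomgnt2, the gene of an enzyme that builds the sugar chain, fell by 2.14 (SE 0.51), per the authors' deposited table. Dpm3 and Dpm1 encode subunits of the enzyme that makes its mannose donor, and for BAF250A, per the authors' deposited table, Dpm3 fell by 1.22 (SE 0.49) and Dpm1 rose by 1.62 (SE 0.44). For BRD9, 1 of 16 fell and 0 rose in the authors' deposited table, with a median of -0.15, and that was Dpm3, which fell by 2.66 (SE 0.53). Among all tested genes 28.7% were called for BAF250A and 14.4% for BRD9, with medians of -0.18 and -0.15. Between the knockdowns 0 of 16 were called by the z test, beside 2.54% of 16311 genes, and 1 had an unadjusted p below 0.05.

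Among 11 cytoskeletal linker genes, which tie the complex to actin, intermediate filaments and the Z-disc, 10 were tested for BAF250A in the authors' deposited table, 2 rose and 2 fell, with a median of 0.58. Krt19, a keratin gene, rose by 3.36 (SE 0.65) and Synm, the gene of synemin, by 3.26 (SE 0.49), while Actn2, the gene of the Z-disc alpha-actinin, fell by 4.33 (SE 0.55) and Plec, the gene of plectin, fell by 1.13, per the authors' deposited table. For BRD9, 2 of 11 rose and 0 fell in the authors' deposited table, with a median of 0.90: Krt19 by 4.30 (SE 0.73) and Actn2 by 2.53 (SE 0.63). Beside these lists, 28.7% of all tested genes were called for BAF250A and 14.4% for BRD9, with medians of -0.18 and -0.15. Actn2 was the 1 linker that differed between the knockdowns by the z test, by -6.87 with an adjusted p of 1.05e-12. The BRD9 libraries were far apart for both: Actn2 had 6137 and 1502 normalized counts, against 411 and 769 in the scrambled ones, and Krt19 had 1253 and 239, against 11.5 and 46.8.

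Of 10 membrane repair and caveola genes, 2 rose and 4 fell for BAF250A in the authors' deposited table, with a median of 0.005. All tested genes had 28.7% called and a median of -0.18 for BAF250A, and 14.4% and -0.15 for BRD9. Cav1, the gene of caveolin-1, rose by 3.56 (SE 0.46) and Anxa2, an annexin gene, by 1.65 (SE 0.46), per the authors' deposited table. Trim72, whose product seals membrane wounds, fell by 3.33 (SE 0.51), Cavin4 fell by 2.04 (SE 0.43), Capn3 fell by 1.20, and Dysf, the gene of dysferlin, fell by 1.17 (SE 0.48), per the authors' deposited table. For BRD9, 2 of 10 rose and 0 fell, with a median of 0.87: Dysf by 1.78 (SE 0.52) and Cav1 by 1.54 (SE 0.52) in the authors' deposited table. Trim72, Dysf and Cavin4 differed between the knockdowns by -4.40, -2.95 and -2.72, where 2.54% of 16311 genes were called. The z test gave these genes adjusted p of 3.99e-06, 0.00233 and 0.00197.

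**Figure D5:**
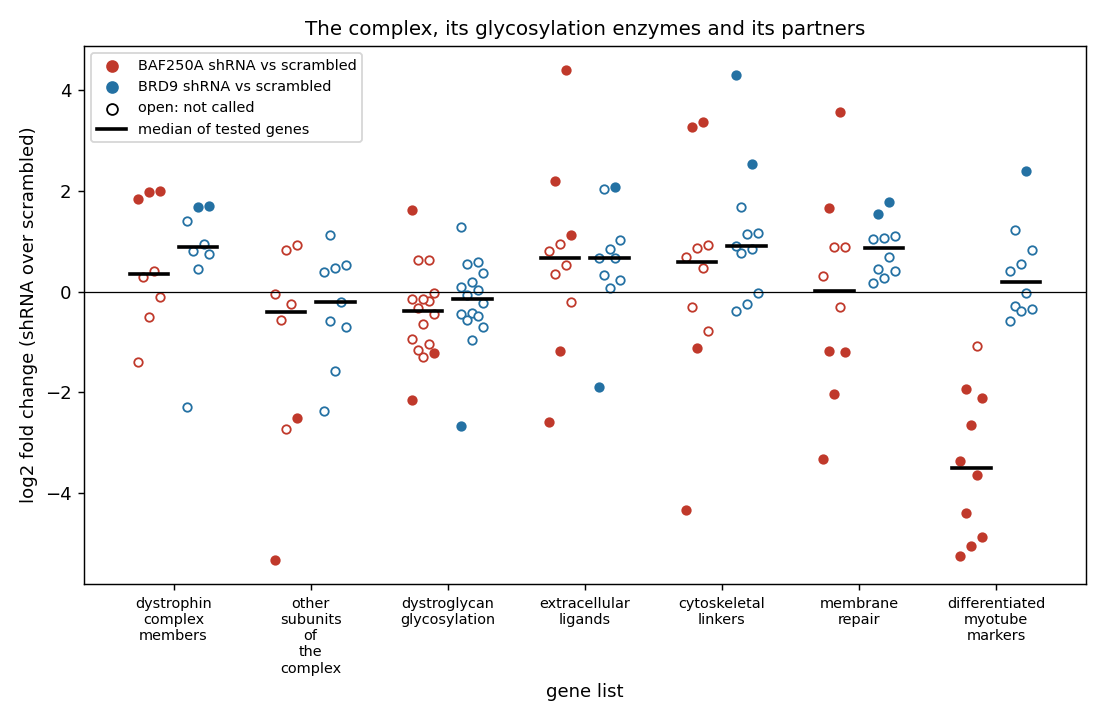
Log2 fold changes of every tested gene in the 8-gene complex list, the 5 lists around it and the myotube markers, for BAF250A and BRD9 over scrambled shRNA; filled points passed the authors' test at an adjusted p below 0.05 and the bars are medians. The 8 genes have medians of 0.35 and 0.88, the other subunits of the complex -0.40 and -0.21.

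Myotube markers fell in BAF250A knockdown. Of 10 myotube markers, 9 fell for BAF250A in the authors' deposited table, with a median of -3.50, and 1 rose and 0 fell for BRD9, with a median of 0.19. Of all tested genes 17.5% fell for BAF250A, and 5.11% rose and 9.33% fell for BRD9. By the z test 8 of the 10 markers were lower with BAF250A than with BRD9, beside 1.99% of 16311 genes. Summed over the 9 of those 10 markers whose reads were recovered, BAF250A libraries had 23862 and 24524 normalized counts against 149136 and 388701 in scrambled libraries, and BRD9 libraries had 352010 and 274959 against 159033 and 398014. In BAF250A knockdown Sgca, Sgcd and Sspn were thus higher while 9 of 10 myotube markers and Cav3 were lower in the same libraries. The part of the cells' differentiation state in the results was not tested.

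Of 6 markers of undifferentiated or reserve cells, 3 rose for BAF250A (Id2, Id3 and Spry1) and 2 for BRD9 (Pax7 and Id2) in the authors' deposited tables, and 0 fell. Pax7 stood at 4.26 (SE 0.53) for BRD9 but 0.24 (SE 0.66) for BAF250A in the authors' deposited tables. The summed normalized counts of the 6 markers were 11218 and 10413 in BAF250A libraries against 4041 and 4432 in scrambled ones, and 7759 and 8824 in BRD9 libraries against 4310 and 4538. Abundant genes weigh most in these sums. Id3 gave 6322 and 5690 in the BAF250A libraries, and Cd34, which was not called, gave 4096 and 1866 in the BRD9 libraries. Of 4 myoblast identity markers, 2 fell for BAF250A in the authors' deposited table, Myf5 by 1.83 (SE 0.56) and Cdh15 by 1.43 (SE 0.46). For BRD9, 1 rose and 1 fell in the authors' deposited table, Myod1 by 1.67 (SE 0.53) and Myf5 by 1.78 (SE 0.62). Des was not called in either. The shares called over all tested genes were 28.7% for BAF250A and 14.4% for BRD9. Of the 6 markers of leukocytes, macrophages, endothelium, epithelium and neurons, 2 of 3 tested fell for BAF250A (Tubb3 and Cd68) and 1 of 4 tested for BRD9 (Cd68) in the authors' deposited tables. They summed to 447 and 483 in BAF250A libraries against 4882 and 7459 in scrambled ones, and to 3631 and 6393 in BRD9 libraries against 5206 and 7638. Most of these were reads of Tubb3, a neuronal tubulin gene. Cd68, a macrophage marker, had 16 and 24 reads in BAF250A libraries and 25 and 19 in BRD9 libraries, against 205 and 205 in scrambled ones, while Ptprc, Epcam, Pecam1 and Cdh5 had 11 or fewer reads in every library. The part of these markers in the results was not tested.

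Sspn had the largest called change among the 8, and the genes whose pair of fold changes lay nearest to its pair were sought among 11495 genes that were tested in both tables at a mean normalized count of at least 100. Nearest were Adgra2, an adhesion receptor gene, at 2.02 and 1.70 for BAF250A and BRD9 in the authors' deposited tables (Euclidean distance 0.0226 over 2 comparisons), Nipsnap1 at 1.98 and 1.67 (0.0293) and Slc43a3, a transporter gene, at 2.02 and 1.72 (0.0399). Their standard errors were between 0.418 and 0.549, so a distance this small is well inside the error of each pair.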

How the data were processed

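RNA of 6 C2C12 libraries was measured at 48 h, and 2 comparison tables, one for each knockdown, were used. Per the submitters' processing notes, the authors used DESeq2, RSEM, Bowtie, StringTie and HISAT with build mm10, and neither role nor version is stated. Per the file headers, the authors deposited for each gene a mean normalized count (a signal averaged over 4 libraries), a log2 fold change with its standard error, a Wald score, and a p-value and adjusted p-value. The deposited log2 values are shrunken by a normal prior (SD 3.06 log2 units in the BAF250A table, 2.67 in the BRD9 table), found by refitting the negative binomial model to 58 low genes of each table. All 4629 and 4508 genes with a mean below 3 resolved into whole reads times one step per library, which gives the size factors. Reads of the 8 genes and of the lists were then found as the whole numbers that give the deposited mean, fold change and error. For genes with a mean below 20 in both tables, Dmd among them, the 2 deposited means alone were used. The search gave a single solution for 81 of 87 genes (mean up to 100000). Where the log2 fold change was used, it was matched within 1e-06. On simulated reads the search recovered 11 of 11 genes. These were members and other subunits only, simulated with the model that the search inverts. Means below 20, such as that of Dmd, and larger means, such as that of Dag1 (16166 for BAF250A), were not simulated. Reads were used for description and for leaving out libraries, with dispersion, size factors and prior held and the largest p called in the deposited table as the limit, and no count test was run. Intervals are 95% normal intervals from the deposited errors.

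Calls use the authors' adjusted p below 0.05. The members, lists and tests were chosen with earlier results of these data known. All 8 members are named. Of each list around them, the called genes are named, up to 4 of the largest per table, and 2 more where a role needed them. Lama5, Plec, Capn3 and Lamb2 follow from this rule. Of the cell type markers only some are named. Some genes planned for these lists are not reported here, and the lists' counts and medians leave them out. Likeness was taken for the member with the largest called change. Python 3.11.15, pandas 2.3.3, numpy 2.4.6, scipy 1.17.1, numba 0.67.0 and matplotlib 3.10.9 were used. Gene coordinates and lengths came from GENCODE vM21 on GRCm38, and promoters from RefSeq on GRCm38.p6. Less than 0.4% of each member's 31-base words occur in another gene. Alternatives changed the adjustment, a filter on low values, centring, the threshold and the libraries used.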

Additional observations from a re-analysis of the deposited data

Results flagged for a closer look

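None of the 8 genes met a criterion for a closer look. Of the surrounding lists, cell type markers left aside, 6 genes did. Their fold changes differed between the knockdowns by the z test with Benjamini-Hochberg adjustment over 16311 genes. The differences, BAF250A minus BRD9 on the log2 scale, were -3.64 for Sntb1, -4.61 for Cav3, -6.87 for Actn2, -2.95 for Dysf, -4.40 for Trim72 and -2.72 for Cavin4. All 6 were lower with BAF250A relative to BRD9, which was the more frequent direction. Of all 16311 genes 2.54% were called, 0.552% higher and 1.99% lower. Some cell type markers, such as Myh3 and Pax7, passed the same test and are not counted here. Groups of 2 libraries are too small to test a single library as an outlier.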

How the results depend on the processing

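The count of members called for BAF250A was 3, and it fell to 1 (Sspn) with a Bonferroni adjustment. For BRD9 it was 2, and it was 0 with a Bonferroni adjustment and 1 (Sspn) at an adjusted p below 0.01. Leaving out each library in turn left 3 calls for BAF250A throughout (lowest 3, highest 3), and 1 for BRD9 throughout (lowest 1, highest 1): Sspn without scrambled library 1 or BRD9 library 2, and Sgca without scrambled library 2 or BRD9 library 1. Over these the log2 fold change of Sgca was between 1.45 and 2.32 for BAF250A and between 1.33 and 2.12 for BRD9, that of Sspn between 1.85 and 2.13 and between 1.41 and 1.86, and that of Sgcd between 1.72 and 2.23 and between 0.91 and 1.70. Of the genes that were not called, Utrn was between -0.14 and 1.31 and between 0.19 and 1.65, Dtna between -0.58 and 0.65 and between -0.049 and 1.20, and Sgcb between -0.0070 and 0.67 and between 0.62 and 1.33. Dag1 was between -0.61 and -0.38 and between 0.66 and 0.95. Dmd could not be fitted with a library left out. The number of members that differ between the knockdowns was 0, and 1 (Dag1) when the variance was halved for the shared controls, where 1231 genes were called in all, against 414. Of the tested single-gene values under other settings, 181 kept their direction and their side of the threshold, 9 no longer passed, 1 newly passed and 4 changed sign. Those 4, none of them called, were for BAF250A Dtna (0.65 without scrambled library 1), Utrn (-0.14) and Sgcb (-0.0070) without scrambled library 2, and for BRD9 Dtna (-0.049) without scrambled library 2. No paired analysis was possible because the letters A and B of the titles could not be tied to the libraries. DESeq2 and edgeR fits on counts were not run, since the tables hold no counts. The log2 ratio of mean counts without the prior, chosen after seeing the data and not tested, kept the direction of all 15 values it gave. The 2 libraries a group set the precision: the smallest called log2 fold change was 1.02 for BAF250A and 1.29 for BRD9, and the cause of the lost calls was not tested.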
